A study of Mus musculus with 24 samples.

Results

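The genes described here encode the machinery of mitosis and of the G2 phase before it: cyclins and Cdk1, mitotic kinases, the spindle checkpoint, centromere and condensin proteins, spindle motors and the proteins that complete cytokinesis. They were followed in C2C12, a mouse myoblast line whose cells stop dividing and fuse to form myotubes on differentiation. Of 40 genes listed, 38 had at least 1 probe set that the platform annotation assigned to that gene alone, 48 probe sets in all out of 12422 that were not controls and 38 genes out of 8251 named in this way. Bub1b and Hmmr had none. The genes were chosen by name and function, with earlier results of these data known. Each gene is represented by its brightest probe set, and 37 of the 38 genes passed the filter on dim probe sets. Cenpe, a kinetochore motor, did not pass: its brighter probe set ranged from 12.5 to 179.9 over the 24 arrays and its dimmer one from 7.5 to 140.1, with 11 and 20 of the 24 values under the floor of 77.0 that was applied to all values. No change is given for Cenpe.

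Total RNA was measured on 24 Affymetrix MG_U74Av2 arrays, 3 on each of 8 days. Untreated C2C12 cells were proliferating on days -2 and -1 and confluent on day 0, when differentiating medium was added, and the remaining cultures had spent 2, 4, 6, 8 or 10 days in that medium. All groups are the same line with no genetic change, and the labels name no agent other than the medium, whose composition they do not give. Nor do they say that a day's 3 replicates came from separate cultures, so the p-values rest on a spread that may be technical. Confluence, medium and time run together in this design and cannot be told apart.

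Progress through the cell cycle is paired with waves of transcription. Genes for DNA replication peak around the start of S phase, and genes for mitosis peak later, in G2 and M. Many promoters of the second wave carry a short element named CHR (cell cycle genes homology region), often next to CCAAT boxes, which recruit the factor NF-Y. In cells that leave the cycle the element is known to bind repressor complexes. Myoblasts leave the cycle for good before they fuse, so mitotic transcripts are a usual readout of how much division remains in a culture. In bulk RNA, fewer dividing cells and less RNA per cell cannot be told apart.

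The labelled line and days were checked against marker genes. Summed over 9 skeletal muscle markers, intensity lay between 24087 and 25501 on the arrays of day -2, between 77362 and 90438 on day 0 and between 134605 and 175625 on days 4 to 10. Myog, the myogenic regulator switched on at commitment, had a mean log2 intensity of 8.69 on day -2 and 14.24 on day 0, and Myh3, embryonic myosin heavy chain, went from the floor (6.27) on day -2 to 13.94 on day 2. Not all 9 rose. Myf5 went from 10.00 on day -2 to 8.81 on day 0 and to between 8.00 and 8.58 on days 4 to 10. Myod1 was at 13.56 on day -2, 14.71 on day 0 and 13.67 on day 2. By the limma test described below, 7 of the 9 were higher in the mean of days 4 to 10 than on day -2, and 1 was lower (all tested probe sets 26.1% and 25.0%). Of 6 macrophage markers 3 were measured above the filter (Cd14, at log2 means between 10.42 and 10.90, Csf1r and Cd68), and Lyz2, Adgre1 and Itgam were at the floor on 24, 17 and 21 arrays. Of 6 endothelial markers Pecam1 and Kdr passed the filter, and Cdh5 and Vwf were at the floor on 23 and 22 arrays. Headers recorded 5 chip lots and 11 days of scanning, most of which held arrays of more than 1 day, so the median change of the genes is also given within them.

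Promoter sequence from RefSeq was at hand for 32 of the 40 genes, as windows from 250 bases before to 50 after the annotated start (build GRCm38.p6). Windows were searched on both strands for CCAAT and for the CHR letters TTTGAA or TTCGAA. CHR letters were present for 25 of 32 genes (78.1%), against 21.7% of the 27025 genes in the table, and CCAAT for 26 (81.2%), against 41.1%. Both were found for 23 genes (71.9%), against 9.65% of all genes. For 22 of the 32 (68.8%) a CHR match started between 40 bases before and 50 after the start, in a stretch chosen after the positions were seen, against 4.72% of all genes. Among 45 DNA replication and S phase genes with a window, 11 (24.4%) held CHR letters and 28 (62.2%) held CCAAT. The high CHR share was not particular to the genes followed here. Among 61 other mitotic and G2/M genes with a window, 36 (59.0%) held CHR letters, 40 (65.6%) CCAAT and 27 (44.3%) both. A match describes letters in a window and is not evidence of a bound site.

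Windows are shown for 6 genes picked by their expression results below, which do not depend on the windows: Ect2 had the largest log2 rise on day 2, Kifc1 the deepest fall, Ccnb2 no return, Cdc20 and Kif23 the largest later rise on day 6 among called genes, and Birc5 neither a return nor a match. For Ect2, with 2 windows in the table, the first listed is shown. Each runs 5′ to 3′ on the gene's strand from 130 bases before to 50 after the start, and capitals mark CCAAT (or its complement ATTGG) and CHR letters (or their complement). The windows are chr3:27153829-27154008 (minus strand) for Ect2, chr17:33890584-33890763 (minus) for Kifc1, chr9:70421505-70421684 (minus) for Ccnb2, chr4:118437294-118437473 (minus) for Cdc20, chr9:61946750-61946929 (minus) for Kif23 and chr11:117849107-117849286 (plus) for Birc5.
Ect2: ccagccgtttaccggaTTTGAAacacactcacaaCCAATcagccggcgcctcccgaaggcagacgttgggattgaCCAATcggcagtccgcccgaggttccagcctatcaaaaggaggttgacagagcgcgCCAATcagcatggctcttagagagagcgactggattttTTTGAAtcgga
Kifc1: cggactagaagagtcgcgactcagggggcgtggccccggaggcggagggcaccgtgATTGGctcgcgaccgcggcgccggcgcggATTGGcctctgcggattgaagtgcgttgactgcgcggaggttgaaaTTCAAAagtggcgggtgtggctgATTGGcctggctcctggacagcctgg
Ccnb2: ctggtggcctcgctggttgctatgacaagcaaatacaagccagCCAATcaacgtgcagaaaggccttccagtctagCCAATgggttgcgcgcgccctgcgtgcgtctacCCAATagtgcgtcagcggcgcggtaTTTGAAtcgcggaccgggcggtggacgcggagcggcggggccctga
Cdc20: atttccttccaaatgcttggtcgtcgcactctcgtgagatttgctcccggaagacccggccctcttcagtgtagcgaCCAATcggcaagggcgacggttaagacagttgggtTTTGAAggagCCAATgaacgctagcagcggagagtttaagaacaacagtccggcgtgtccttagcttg
Kif23: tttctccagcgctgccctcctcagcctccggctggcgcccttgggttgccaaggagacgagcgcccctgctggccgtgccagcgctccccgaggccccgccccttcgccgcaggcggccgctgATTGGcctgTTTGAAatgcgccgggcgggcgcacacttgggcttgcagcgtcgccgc
Birc5: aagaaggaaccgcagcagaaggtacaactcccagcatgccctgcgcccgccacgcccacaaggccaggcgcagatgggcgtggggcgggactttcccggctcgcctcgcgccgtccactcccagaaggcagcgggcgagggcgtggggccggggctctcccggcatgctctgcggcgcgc
Counted from the start, with negative positions before it, the CHR match nearest the start began at position 2 in Kifc1, 3 in Kif23, 5 in Ccnb2 and -18 in Cdc20. Ect2 held 2 matches, at -114 and 40, and the Birc5 window held neither motif. The stretches shown for Ect2, Kifc1 and Ccnb2 held 3 CCAAT boxes each, that of Cdc20 held 2 and that of Kif23 held 1.

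From day -2 to day -1, while the cultures were proliferating, no mitotic gene was called. Calls are made on the limma test at a Benjamini-Hochberg adjusted p under 0.05 over all 8479 tested probe sets. The median log2 change of the 37 genes was -0.01, with a range from -0.28 to 0.71, and at an unadjusted p under 0.05 there were 0 lower and 2 higher, where all tested probe sets gave 673 lower and 1026 higher. After adjustment 3.22% of all tested probe sets were called lower and 6.07% higher.

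Between day -1 and day 0 nearly the whole group fell together, before any time in differentiating medium. Of the 37 genes, 36 were called lower and 0 higher, with a median log2 change of -1.85 and a range from -3.68 to -0.87. Over all tested probe sets 13.9% were called lower and 11.9% higher in this step, and the median change was 0.01. The exception was Cdkn3, a phosphatase that acts on cyclin-dependent kinases, at -1.09 ± 0.48 (log2 change ± SE, 3 arrays a day, adjusted p = 0.108). For all 37 genes the 3 arrays of day 0 lay under the 3 of day -1, which held for 20.9% of all tested probe sets. Day 0 against day -2 gave the same counts, 36 lower and 0 higher, with a median of -1.89 (background 16.1% lower and 16.5% higher). On day 0 the genes stood at a median of 27.0% of their day -2 intensity, calculated from log2 means.

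Kifc1, a minus-end directed kinesin that bundles spindle microtubules, fell furthest. Its intensities were 2497, 1872 and 1904 on day -1 and 178.8, 140.2 and 167.9 on day 0, a log2 change of -3.68 ± 0.30 (adjusted p = 2.33e-09). Its probe set carries the suffix _f_at, which the array maker gives to sets that can match related sequences. Ect2, the exchange factor that activates RhoA at the division plane, read 2069, 2343 and 3227 on day -1 and 422.4, 311 and 287.3 on day 0 (-2.90 ± 0.32). Bub1, a kinase of the spindle checkpoint, read 3157, 2905 and 3160 and then 738.8, 535 and 484.7 (-2.41 ± 0.22). In each of these genes the day 0 arrays were far under the day -1 arrays, with no overlap. The order is that of the brightest probe sets. For Kif20a the brightest, also an _f_at set, gave -2.12 ± 0.16, and its other set gave -2.60 ± 0.16, a larger fall than that of Bub1.

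By the brightest probe set, the smallest falls were in Stmn1, Ccnb2 and Cdc25c. Stmn1 (stathmin), which destabilises microtubules, read 15639, 16879 and 17095 on day -1 and 9926, 9689 and 7718 on day 0 (-0.87 ± 0.11). Cyclin B2, the product of Ccnb2 and a partner of Cdk1, gave 18263, 19213 and 18296 and then 11356, 9174 and 7884 (-0.99 ± 0.11). Cdc25c, the phosphatase that activates Cdk1 at mitotic entry, gave 2089, 1952 and 2018 and then 1115, 1128 and 841.3 (-0.99 ± 0.20). The place of Cdc25c depends on the probe set: its second, dimmer set gave -1.90 ± 0.35 into day 0, near the median of the group, and -2.95 ± 0.28 in the mean of days 4 to 10 against day -2, where the brightest gave -1.57 ± 0.16. All 3 genes were called, and their arrays did not overlap either.

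By role, the spindle kinesins and microtubule proteins had a median log2 change of -2.01 (8 genes), the cytokinesis genes -1.92 (6), the mitotic kinases -1.88 (7), the checkpoint and anaphase promoting complex cofactors -1.79 (3) and the chromosome structure and centromere genes -1.74 (7), and every gene of these groups was called. The cyclins, Cdk1 and their regulators had the smallest median, -1.11, with 5 of 6 called. Within this last group Cdk1, the kinase that drives mitotic entry, changed by -1.96 ± 0.21 and Cks2, a small Cdk-binding subunit, by -1.70 ± 0.13, against -1.13 ± 0.13 for Ccna2, the cyclin of S phase and early mitosis. On day 0 the group stood at a median of 48.6% of day -2, and the other groups between 23.8% and 29.2%.

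**Figure D1:**
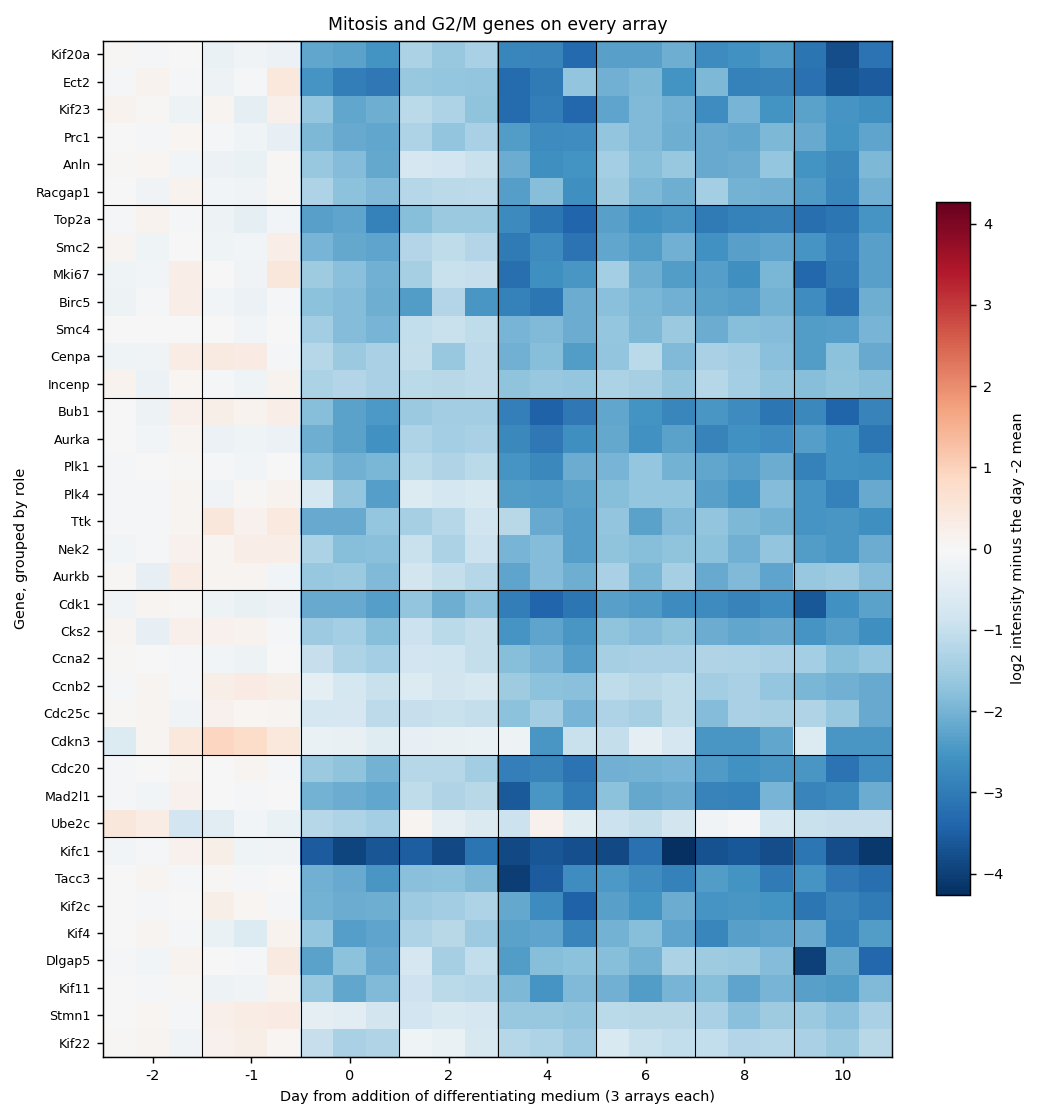
Heat map of log2 intensity minus the gene's day -2 mean for the 37 tested genes (vertical axis, grouped by role) on each of the 24 arrays (horizontal axis, 3 per day). Values near 0 on days -2 and -1 give way to negative values on day 0, paler ones on day 2 and again darker ones from day 4, and Kifc1 has the most negative late mean, -3.72.

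Within chip lot 1, which held 1 array of day -1 and 2 of day 0, the median change was -1.91 and 37 of 37 genes were lower. No scan day held both days. A fixed term for scan day leaves 6 residual degrees of freedom. Day 0 replicates 1 and 2 were each alone on their scan day. Day -1 replicates 1 and 2 shared a scan day with no other array. With that term the step therefore rests on replicate 3 of each day, linked through other days, and the median was -2.19. The adipocyte markers that passed the filter were Lpl and Pparg. Their summed intensity lay between 2846 and 2997 on day 0 and between 70 and 930 on other days. The peak was that of Lpl, at a mean log2 intensity of 8.40 on day -1, 11.40 on day 0 and 7.07 on day 2. Pparg went the other way into day 0, with 8.26 on day -1, 7.67 on day 0 and 6.80 on day 2. The defining adipocyte markers Adipoq and Fabp4 did not pass the filter, and the part of these markers in the fall was not tested.

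On day 2, after the time in differentiating medium, most mitotic transcripts were partly back. From day 0 to day 2, 23 of the 37 genes were called higher and 0 lower, with a median log2 change of 0.67 and a range from -0.16 to 1.20 (background 11.2% higher and 10.4% lower, median 0.00). The change was above 0 for 34 genes, and for 28 genes the 3 arrays of day 2 lay above the 3 of day 0, which held for 19.1% of all tested probe sets. The return covered a median of 35.2% of the log2 distance lost between day -2 and day 0. It was incomplete: day 2 was called lower than day -2 for 34 genes and higher for 0 (background 16.1% lower and 16.6% higher), with a median of -1.17. The 3 that were not called lower than day -2 were Cdkn3 (-0.31 ± 0.48), Ube2c (-0.31 ± 0.30) and Kif22 (-0.38 ± 0.15, adjusted p = 0.053).

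Ect2, which had fallen furthest but for Kifc1, rose most on the log2 scale, although Ube2c, Kif22, Plk4 and Anln regained a larger share of their own fall (76.8%, 68.9%, 58.5% and 55.7%, against 42.1%). Its intensities were 422.4, 311 and 287.3 on day 0 and 785.3, 771 and 749.4 on day 2 (1.20 ± 0.32, adjusted p = 0.00841), still 32.0% of day -2. Anln (anillin), the actin-binding scaffold of the contractile ring, read 2917, 2450 and 1970 and then 5364, 5055 and 4543 (1.04 ± 0.19). In both genes the arrays of day 2 lay above those of day 0. Ube2c, the conjugating enzyme of the anaphase promoting complex, read 375.6, 343.3 and 317.1 and then 927.5, 647.2 and 561 (1.01 ± 0.30), and Dlgap5, which stabilises kinetochore fibres, 281, 401.6 and 303.3 and then 825, 503.5 and 649.3 (0.99 ± 0.33). Neither gene's arrays overlapped between the days, although day 2 was more scattered than day 0.

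Other members did not return. Birc5 (survivin), a subunit of the chromosomal passenger complex, read 1681, 1588 and 1347 on day 0 and 1089, 2375 and 1005 on day 2 (-0.16 ± 0.28), with 1 array of day 2 above all of day 0 and the other two below. Stmn1 read 9926, 9689 and 7718 and then 7648, 8607 and 8059 (-0.16 ± 0.11). Cdc25c read 1115, 1128 and 841.3 and then 944.6, 953.7 and 905 (-0.13 ± 0.20), and Ccnb2 11356, 9174 and 7884 and then 10098, 8773 and 9513 (0.01 ± 0.11, adjusted p = 0.965). The arrays of both days overlapped in all 4, and 3 of these 4 genes, all but Birc5, were those with the smallest fall. Kifc1 stayed at its low level, with 183.6, 146.1 and 240.4 on day 2 (0.21 ± 0.30). These values are under the filter of 277.7, which the gene passed only through days -2 and -1. Its lack of a return is therefore read at low signal.

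The roles differed in how many members came back. All 7 mitotic kinases were called higher: Aurka, the kinase of the spindle poles, by 0.94 ± 0.18, Plk4, which licenses centriole duplication, by 0.94 ± 0.25, Ttk, the apical checkpoint kinase, by 0.82 ± 0.25, Plk1, a kinase of many mitotic steps, by 0.75 ± 0.13, Aurkb, the catalytic subunit of the passenger complex, by 0.69 ± 0.19, Bub1 by 0.67 ± 0.22, and Nek2, which separates centrosomes, by 0.59 ± 0.17. So were all 3 cofactors, Ube2c, Mad2l1 (the checkpoint protein that binds Cdc20) at 0.94 ± 0.23 and Cdc20 (the activator of the anaphase promoting complex) at 0.46 ± 0.14. Of the 6 cyclins, Cdk1 and regulators, Cks2 alone was called (0.57 ± 0.13), with Cdk1 at 0.36 ± 0.21 and Ccna2 at 0.35 ± 0.13. Whether the roles differ was not tested.

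Among the chromosome and centromere genes 3 of 7 were called. The condensin subunits Smc2 and Smc4 rose by 0.95 ± 0.17 and 0.75 ± 0.13, and Top2a, the topoisomerase that untangles sister chromatids, rose by 0.81 ± 0.19. Mki67, the proliferation antigen Ki-67 that coats mitotic chromosomes, was at 0.68 ± 0.28 (adjusted p = 0.088), Incenp, the scaffold of the passenger complex, at 0.19 ± 0.15 and Cenpa, the centromeric histone, at 0.13 ± 0.23. The passenger complex was thus split, with Aurkb called higher and Birc5 and Incenp not. The difference between these genes was not tested.

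Of the spindle group 5 of 8 were called: Dlgap5, Kif22 (a chromosome-arm kinesin, 0.83 ± 0.15), Kif11 (the motor that pushes spindle poles apart, 0.82 ± 0.21), Kif4 (another chromosome-bound kinesin, 0.73 ± 0.24) and Kif2c (a microtubule depolymerase, 0.63 ± 0.20). Tacc3, which crosslinks kinetochore fibres, was at 0.42 ± 0.30. Of the 6 cytokinesis genes 4 were called, with Kif20a, a midzone kinesin, at 0.92 ± 0.16 and Prc1, which bundles midzone microtubules, at 0.63 ± 0.14. Kif23 and Racgap1, which together form the centralspindlin complex, were at 0.58 ± 0.22 and 0.48 ± 0.21 and were not called.

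**Figure D2:**
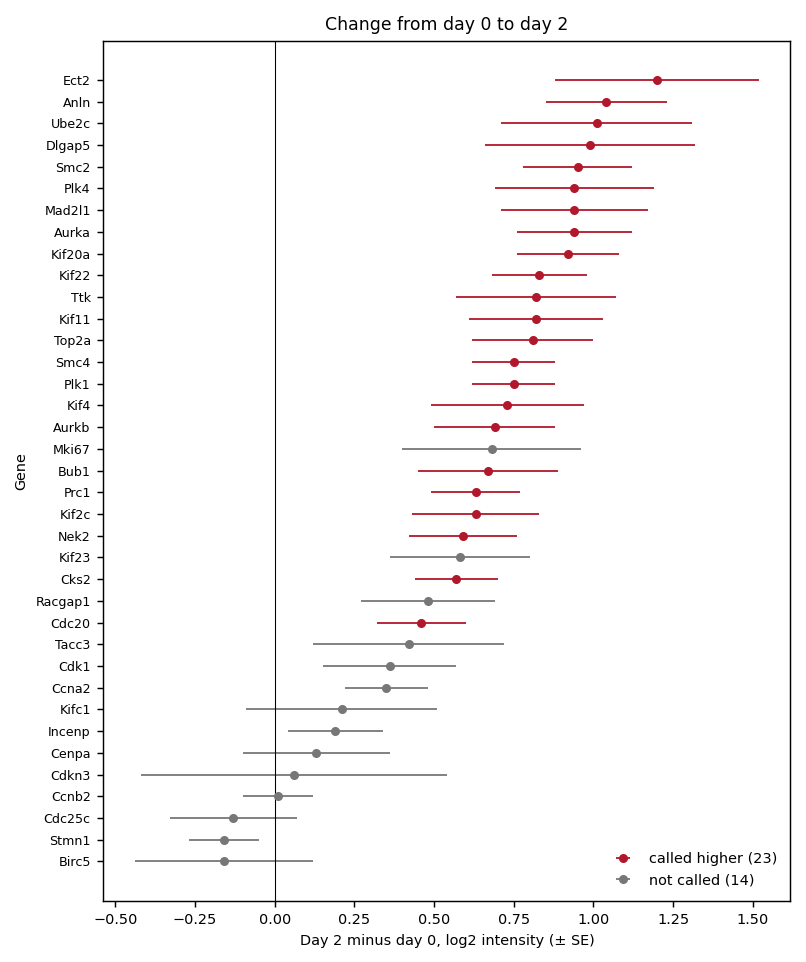
Change in log2 intensity from day 0 to day 2 (horizontal axis, points with SE bars, 3 arrays a day) for the 37 tested genes (vertical axis, sorted). The 23 genes called higher lie between 0.46 and 1.20, and the 14 that were not called between -0.16 and 0.68.

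Within chip lot 1, with 2 arrays of each day, the median return was 0.61 and 32 of 37 genes were higher, and within the scan day that held 1 array of each it was 0.86 with 35 higher. Leaving out day 0 replicate 3, the array with the lowest day 0 median, reduced the number called higher to 14 and the median to 0.56. With a fixed scan day term, day 0 rests on that replicate alone, and the median was 0.86. Among the 29 tested genes with a promoter window, the median return was 32.7% for the 23 with CHR letters (range 1.76% to 76.8%) and 35.7% for the 6 without (range -8.27% to 58.5%).

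The return was followed by a further fall. From day 2 to day 4, 31 genes were called lower and 0 higher, with a median of -1.10 and every change below 0 (background 7.56% lower and 6.40% higher, median 0.04). Ube2c (-0.11 ± 0.30), Kifc1 (-0.26 ± 0.30), Birc5 (-0.65 ± 0.28), Ttk (-0.73 ± 0.25), Dlgap5 (-0.90 ± 0.33) and Cdkn3 (-0.91 ± 0.48) were not called. Among the steps up to day 4, the step into day 0 was the largest fall for 33 genes, 1 of which, Cdkn3, had a larger but uncalled change later (-1.70 ± 0.48 from day 6 to day 8). For the other 4, Ccna2, Ccnb2, Plk4 and Stmn1, the step from day 2 to day 4 was the larger, by less than 1 SE in each. The median change was -1.28 between the arrays of days 2 and 4 that shared a scan day.

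On days 4 to 10 the transcripts were low but still measured. Against day -2, the mean of days 4, 6, 8 and 10 was called lower for 37 of 37 genes, with a median of -2.21 and a range from -3.72 to -0.65 (background 25.0% lower and 26.1% higher). For 35 genes every one of the 12 late arrays lay under the 3 of day -2 (17.8% of all tested probe sets), the exceptions being Ube2c and Cdkn3. The level left had a median of 21.6% of day -2, with 27.0% on day 0 and 44.5% on day 2. Within chip lots and scan days that held both periods the median change lay between -2.39 and -2.14.

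Lowest of all was Kifc1, with 7.59% left: its intensities were 1922, 2001 and 2408 on day -2 and had a lowest value of 109.1, a median of 154.7 and a highest of 245.8 on the late arrays (-3.72 ± 0.24, adjusted p = 3.74e-12). All its late values were under the filter of 277.7, so the share left is uncertain. Tacc3 kept 13.3%, with 1251, 1351 and 1175 on day -2 and 20.5, 184.1 and 238.8 as lowest, median and highest later, the lowest under the floor. Top2a and Bub1 kept 13.9%, Top2a going from 4563, 5350 and 4706 to a lowest of 465.2, a median of 667.9 and a highest of 969.2. Bub1 went from 2596, 2268 and 3080 to 239.5, 374.9 and 564.8. The late arrays of all 4 were well under those of day -2.

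The most was left of Ube2c, at 63.6%. It had 1214, 1079 and 486.9 on day -2, with the last inside the late range of 420.4 to 988 (median 483.9). Kif22 kept 43.7%, from 6542, 6787 and 5707 to a lowest of 2118, a median of 2726.5 and a highest of 4041. Both rest on probe sets with the suffix _r_at, which the array maker gives where its rules for choosing probes were relaxed. Stmn1 kept 35.7%, from 13193, 14284 and 12679 to 3898, 4574 and 6083, with no overlap.

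**Figure D3:**
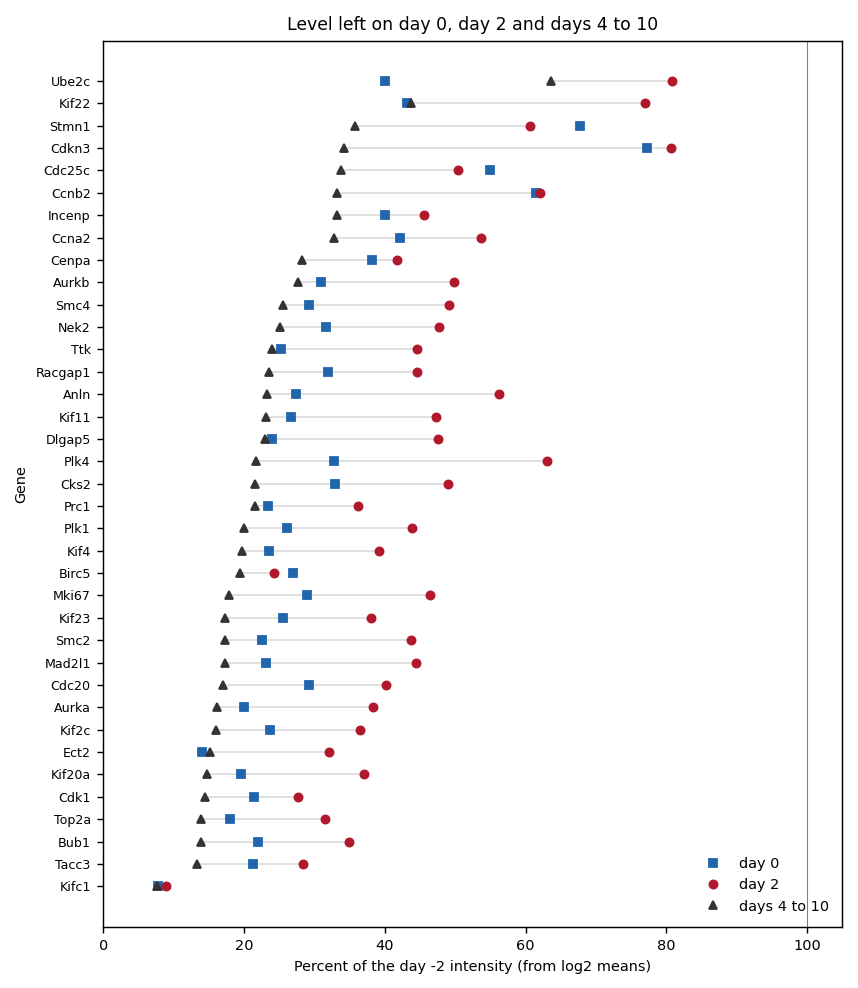
Percent of the day -2 intensity left on day 0 (squares), day 2 (circles) and days 4 to 10 (triangles), calculated from log2 means, for the 37 tested genes (vertical axis, sorted by the late level). Most genes lie near the medians of 27.0%, 44.5% and 21.6%, Kifc1 lies at 7.69%, 8.86% and 7.59%, and Ube2c, at 63.6%, has the highest late level.

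Compared with the confluent cells of day 0, the late level was called lower for 18 genes, higher for 1 and not called for 18, with a median of -0.39 (background 17.0% lower and 16.9% higher). The cyclins, Cdk1 and their regulators, which had fallen least by day 0, were all called lower (6 of 6): Cdkn3 by -1.18 ± 0.38, Ccnb2 by -0.89 ± 0.09, Cdc25c by -0.70 ± 0.16, Cks2 by -0.60 ± 0.10, Cdk1 by -0.57 ± 0.17 and Ccna2 by -0.36 ± 0.10. Ccnb2 and Stmn1 were the 2 genes whose 12 late arrays all lay under the 3 of day 0 (10.7% of all tested probe sets). Cdc20 fell by 0.78 ± 0.11, Mki67 by 0.70 ± 0.22 and Tacc3 by 0.68 ± 0.24.

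The gene called higher than on day 0 was Ube2c (0.67 ± 0.24, adjusted p = 0.0334), with 375.6, 343.3 and 317.1 on day 0 under all 12 late arrays. The call was lost without any 1 of the 3 day 0 arrays, under quantile normalization, without the filter and with a chip lot term. The count of 18 was also unsteady. Without day 0 replicate 1 it was 6 and with chip lot as a fixed factor 11. Scan day as a fixed factor leaves day 0 to replicate 3 alone, so no call or count is given for it here. Within chip lot 1 the median was -0.34, with 34 of 37 genes lower.

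Against day 2 the late mean was called lower for 34 genes and higher for 0, with a median of -1.03 (background 9.47% lower and 8.23% higher). The 12 late arrays all lay under the 3 of day 2 for 29 genes, against 5.72% of all tested probe sets. Ube2c (-0.35 ± 0.24), Birc5 (-0.33 ± 0.22) and Kifc1 (-0.22 ± 0.24) were not called. The median within lots and scan days was between -1.03 and -0.53, the smaller change coming from 1 array of day 2 and 1 of day 6.

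The late level was not flat. Relative to day -2, the array medians of the 37 genes averaged -2.42 ± 0.07 (SD, 3 arrays) on day 4, -1.88 ± 0.11 on day 6, -2.14 ± 0.10 on day 8 and -2.44 ± 0.15 on day 10. The moderated F test among these days called 10 of 37 genes, against 2.00% of all tested probe sets: Anln, Ccna2, Ccnb2, Cdc20, Plk1, Prc1, Dlgap5, Kif20a, Kif23 and Cks2. From day 4 to day 6 the change was above 0 for 33 of 37 genes (89.2%) and for 48.0% of all tested probe sets, with a median of 0.53. Of the 37 genes 7 were called higher and 0 lower, where 0.248% of all tested probe sets were called higher and 0.142% lower.

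The 7 genes were Kif23 (1.16 ± 0.22), Cdc20 (0.95 ± 0.14), Kif20a (0.73 ± 0.16), Prc1 (0.70 ± 0.14), Cks2 (0.65 ± 0.13), Ccna2 (0.64 ± 0.13) and Ccnb2 (0.57 ± 0.11). Cdc20 and Kif23, singled out after their values were seen, showed it on every array. Cdc20 read 2479, 2593 and 2104 on day 4, 4520, 4578 and 4742 on day 6, 3455, 3128 and 3342 on day 8 and 3358, 2073 and 2950 on day 10. Kif23 read 332.9, 420 and 318 on day 4, 687.9, 892.7 and 800.3 on day 6, 524.6, 828.8 and 558.2 on day 8 and 674.5, 568.6 and 529.4 on day 10. For 22 of the 37 genes the arrays of day 6 lay above those of day 4 (7.78% of all tested probe sets). Within the lot and the 2 scan days that held both days the median was between 0.42 and 0.58, and 32 to 34 of 37 genes were higher.

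The level fell again after day 6. No gene was called from day 6 to day 8 (median -0.29) or from day 8 to day 10 (median -0.29) by limma, where 0.0472% and 0% of all tested probe sets were called lower. At an unadjusted p under 0.05, 10 genes were lower and 0 higher in the earlier of these steps and 17 lower and 1 higher in the later, where all 8479 tested probe sets gave 505 lower and 371 higher and then 335 lower and 329 higher. Day 10 against day 6, a comparison added after these values were seen, had 5 genes called lower, Kif20a (-1.12 ± 0.16), Ccnb2 (-0.95 ± 0.11), Plk1 (-0.81 ± 0.13), Cdc20 (-0.75 ± 0.14) and Cks2 (-0.73 ± 0.13), with a median of -0.53 (background 0.189% lower). The arrays of day 10 lay under those of day 6 for 20 of 37 genes, against 6.91% of all tested probe sets. As a straight line over days 4 to 10, Ccnb2 alone was called, at -0.076 ± 0.018 log2 a day (adjusted p = 0.0165, background 1.83% lower and 1.04% higher).

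**Figure D4:**
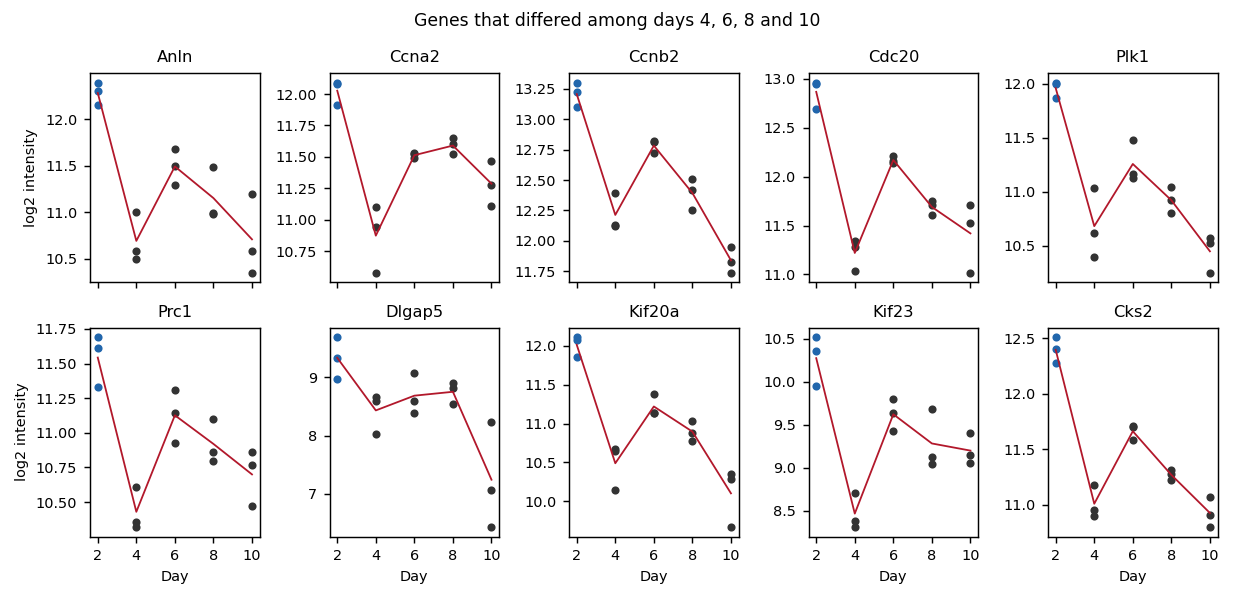
Log2 intensity on each array (points, days 2 to 10 on the horizontal axis, day 2 in blue) and day means (red line) for the 10 genes called by the F test among days 4 to 10. The day 6 mean is above the day 4 mean in each panel, by 0.25 (Dlgap5, not called in that step) to 1.16 (Kif23). The day 10 mean is under the day 6 mean.

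The number of calls in these late steps was small and moved with single arrays. Leaving out any 1 array changed the 7 genes called from day 4 to day 6 to between 1 and 11, and the 5 called from day 6 to day 10 to between 3 and 6. Without day 6 replicate 2, 1 gene was called from day 4 to day 6, and without day 4 replicate 3, day 6 replicate 1 or day 6 replicate 3, 2 were. Chip lot or scan day as a fixed factor gave 3, and scan day as a random block 12. From day 6 to day 10 the fixed scan day term gave 0. The median over the 37 genes stayed between 0.52 and 0.61 over the arrays left out.

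Other groups of cell cycle genes were counted in the same way. A further list of 71 genes of mitosis and G2/M had 33 that were tested. Of these, 25 were called lower from day -1 to day 0 (median -1.44, background 13.9% lower). From day 0 to day 2, 9 were called higher and 1 lower (median 0.34, background 11.2% higher and 10.4% lower). In the late mean against day -2, 27 were lower and 0 higher (median -1.46, background 25.0% lower and 26.1% higher). From day 4 to day 6 this further list had a median of 0.19 with 1 called higher (background 0.248%). From day 6 to day 10 the median was -0.19 with 0 called lower (background 0.189%). Its array medians averaged -1.54 ± 0.07 on day 4, -1.14 ± 0.10 on day 6 and -1.56 ± 0.16 on day 10. Rangap1, a regulator of nuclear transport and spindle assembly, fell by 2.38 ± 0.25 into day 0 and rose by 1.34 ± 0.25 on day 2, whereas Zwint, a kinetochore protein, was the 1 called lower on day 2 (-0.29 ± 0.10). Genes whose products also serve outside mitosis were tested as 23 of 32 listed, among them subunits of the anaphase promoting complex and of cohesin. Their median change against day -2 in the late mean was -0.01, with 7 called lower and 4 higher. Over all tested probe sets 25.0% were called lower and 26.1% higher, so these counts are not read as particular to the list. Called subunits of the anaphase promoting complex went both ways, with Anapc1 (-0.91 ± 0.12), Cdc23 (-0.66 ± 0.19) and Anapc4 (-0.31 ± 0.13) lower and Anapc13 (0.93 ± 0.13), Anapc2 (0.35 ± 0.09) and Cdc16 (0.32 ± 0.09) higher. Their activator Cdc20 was at -2.56 ± 0.11 in the same comparison.

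DNA replication and S phase genes also fell into day 0 and in part rose on day 2. Of 46 tested, 41 were called lower from day -1 to day 0 (median -1.53, background 13.9% lower). From day 0 to day 2, 15 were called higher and 2 lower (median 0.45, background 11.2% higher and 10.4% lower). The histone chaperone Asf1b changed by -2.88 ± 0.21 in the earlier step and by 1.47 ± 0.21 in the later. In the late mean 45 of the 46 were called lower than on day -2 (median -2.07, background 25.0% lower). From day 4 to day 6 this list had a median of 0.17 with 1 gene called higher (background 0.248% higher). Its array medians averaged -1.89 ± 0.11 on day 6 and -1.88 ± 0.14 on day 10, where those of the mitotic genes averaged -1.88 ± 0.11 and -2.44 ± 0.15. Whether the lists differ was not tested.

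**Figure D5:**
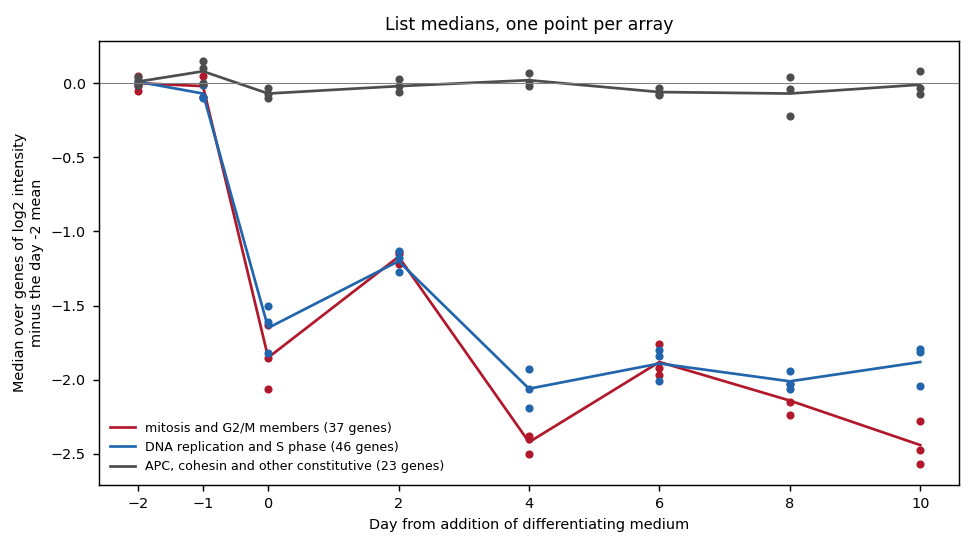
Median over the genes of a list of log2 intensity minus the day -2 mean, with each point an array and lines joining the means of 3 arrays (horizontal axis, days). The 37 mitotic genes go from 0 to -1.85 on day 0, -1.17 on day 2, -2.42 on day 4, -1.88 on day 6 and -2.44 on day 10, the 46 DNA replication genes end at -1.88, and the 23 constitutive division genes stay near 0.

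Genes of G1 and of cell cycle exit moved over the same days. Of 18 tested, 8 were called lower and 2 higher from day -1 to day 0 (background 13.9% lower and 11.9% higher). From day 0 to day 2, 10 were called higher and 0 lower (background 11.2% higher and 10.4% lower). Cdkn1c (p57), a cyclin-dependent kinase inhibitor, rose by 1.09 ± 0.25 and then by 2.96 ± 0.25. Cdkn1a (p21), the inhibitor best known from myoblast cell cycle exit, rose by 2.24 ± 0.21 from day 0 to day 2. Rb1, the retinoblastoma pocket protein, rose by 1.25 ± 0.15 in the same step, in which 23 mitotic genes were called higher. The list's calls in that step were not confined to inhibitors and pocket proteins. They included Cdk2 (1.19 ± 0.18), Ccnd3 (0.97 ± 0.10), Lin9 (0.83 ± 0.21) and Tfdp1 (0.44 ± 0.13). Ccnd1 (cyclin D1) changed by -1.22 ± 0.20 into day 0 and by -2.58 ± 0.16 from day -2 to the late mean.

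Several probe sets named the same gene for 8 of the 38 genes, and for 5 a tested set differed from the brightest in its call in at least 1 comparison. For Cdc25c the calls were the same and the sizes differed, as given above, with 0.41 ± 0.35 for the second set from day 0 to day 2. The second set of Mki67 was dim, at 377.4, 409 and 193.1 on day -2 against 2482, 2596 and 3410 for the brightest, and its change in the late mean was 0.46 (adjusted p = 0.243) where the brightest gave -2.49. The fall of Mki67 therefore rests on 1 probe set. A second set of Bub1 was not called from day 0 to day 2 (0.37) or from day 2 to day 4 (-0.97), and the second set of Incenp was not called from day 2 to day 4 (-0.24). In the late mean against day 0, further sets of Plk1 (-0.29), Kif20a (-0.07), Bub1 (-0.54) and Mki67 (0.36) were not called. Against day 2, further sets of Bub1 (-0.91), Incenp (-0.27) and Mki67 (0.22) were not. Nor was a further set of Plk1 from day 6 to day 10 (-0.80). From day 4 to day 6, another set of Plk1 was called higher (1.28, adjusted p = 0.00317) where its brightest set was not (0.58 ± 0.13, adjusted p = 0.0581).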

How the data were processed

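The deposited values, as made by the authors, were linear intensities, 1 per probe set and array; the summary of probes is not given in the sources used here. Without 2% at each end, the mean of every array lay between 1500.85 and 1500.98, so the values were not scaled again. Control probe sets (66 of 12488) were left out. Symbols came from GEO's platform annotation, updated through gene identifiers. Values under the 20th percentile (77.0) were raised to it and converted to log2, which put between 15.7% and 25.6% of an array at the floor and understates changes of dim genes. Testing required a mean above the 40th percentile (277.7) on 1 or more days, which 8479 probe sets reached.

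All 24 arrays were fitted in limma 3.58.1 (R 4.3.3; lmFit, contrasts.fit, eBayes with a variance trend), 2-sided, with Benjamini-Hochberg adjustment over all tested probe sets; the script was tested on simulated data. The fit had 16 residual degrees of freedom. The late mean averages the means of days 4, 6, 8 and 10. Lists are described by counts and medians, with no test. Comparisons share days, so their values are not independent. The number of arrays limits the precision. Figures used matplotlib 3.10.9.

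The genes, the lists and the rules were chosen with earlier results of these data known. All genes are named. Values on each array are printed for the 3 largest and 3 smallest falls into day 0, the 4 highest and 4 lowest changes on day 2, and exceptions. For the 3 lowest and 3 highest levels left, the 12 late arrays are given by their lowest, median and highest value. Alternatives changed the normalization, floor, filter, batch terms, variance trend, probe set and arrays. Same-numbered arrays of different days correlated at a mean r of 0.033 over 84 pairs, and differently numbered ones at -0.017 over 168 pairs. Both were low, so the numbers were not taken to pair samples. However, 17 of 24 arrays were closest to an array of their own number, although same-numbered pairs were the minority. A pairing is therefore not excluded. Results with a replicate block are given at the end.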

Additional observations from a re-analysis of the deposited data

How the results depend on the processing

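The median fall into day 0, the median return on day 2 and the median late level against day -2 kept their direction under every alternative run, and the calls of the late steps moved most. With scan day as a fixed factor, 23 genes were called lower from day -1 to day 0 (median -2.19), 15 higher from day 0 to day 2 (0.86) and 1 lower and 0 higher in the late mean against day 0 (-0.17, with Plk4 turned to 0.36); the medians were -2.22 for day 0 and -1.28 for day 2 against day -2 and -0.92 for the late mean against day 2, 3 genes were called higher from day 4 to day 6, 0 lower from day 6 to day 10 and 0 by the slope. With chip lot as a fixed factor, 11 were lower and 0 higher in the late mean against day 0, the median from day 2 to day 4 was -1.22, that from day 4 to day 6 was 0.62 with 3 called, and 0 had a called slope. Scan day as a random block gave 12 calls from day 4 to day 6 and 2 slopes. Quantile normalization moved the late mean against day 2 to -1.12, day 6 against day 4 to 0.63 and the calls above day 0 to 0, which no filter on dim probe sets also did. A floor at the 40th percentile gave 1 gene called higher from day -2 to day -1, 11 higher from day 4 to day 6 and -0.93 for the late mean against day 2, a pseudocount -0.91, and no variance trend 3 calls from day 4 to day 6.

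Leaving out 1 array at a time, the calls ranged from 14 to 24 higher on day 2, from 6 to 22 lower and 0 to 1 higher in the late mean against day 0, from 1 to 11 for day 6 against day 4, from 3 to 6 for day 10 against day 6, and from 0 to 2 falling and 0 to 1 rising slopes. Medians ranged from -1.98 to -1.77 (day 0 against day -1), -1.96 to -1.79 (day 0 against day -2), 0.56 to 0.74 (day 2 against day 0), -1.20 to -1.05 (day 4 against day 2), -0.46 to -0.27 (late against day 0) and -0.62 to -0.44 (day 10 against day 6). The cause of these changes was not tested, beyond the fewer arrays or residual degrees of freedom that each leaves. With the replicate block, 24 genes were called higher on day 2, 19 lower in the late mean against day 0 and 8 higher on day 6, and 17 of 24 arrays were closest to an array of their own number. Signal near the floor limits Cenpe, Cdkn3 and Tacc3. Kifc1 is limited by low signal too: its day means from day 0 on lay between 156 and 190, under the filter of 277.7. What part of that signal is background was not tested.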
